A study of Schizosaccharomyces pombe with 2 samples.

Results

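Aldo/keto reductases, flavin-dependent NADPH dehydrogenases, aldehyde and short chain dehydrogenases and other oxidoreductases of fission yeast, Schizosaccharomyces pombe, were examined as 1 list. The list holds the 33 of 5076 listed genes whose deposited protein description names an aldo/keto reductase, an oxidoreductase, a short chain, aldehyde or NADPH dehydrogenase, or a pyridoxal reductase. A further 3 genes with such a description lie in gene clusters that were set aside by identifier. The search of words also took a semialdehyde dehydrogenase as an aldehyde dehydrogenase. Only 1343 of the 5076 genes carry a description, so the list does not hold every redox enzyme of this yeast. Expression had been measured by RNA sequencing in 1 library from the wild type (WT) and 1 from a strain with ppr10 deleted, both grown to logarithmic phase. Ppr10 is a pentatricopeptide repeat protein, a kind of RNA-binding protein that acts in mitochondria. The stated goal was to find what makes these cells die. The labels give no other allele or treatment of either strain.

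Enzymes of these kinds move electrons between a nicotinamide or flavin cofactor and small molecules. Aldo/keto reductases use NADPH to turn aldehydes and ketones, sugars among them, into alcohols. Flavin NADPH dehydrogenases, known as old yellow enzymes, reduce the double bond next to a carbonyl group. Aldehyde dehydrogenases oxidise aldehydes to acids, and short chain dehydrogenases interconvert alcohols and ketones on many substrates. In fission yeast many genes for such enzymes are known to respond to oxidative stress through the transcription factor Pap1 or to general stress through the kinase Sty1 and the factor Atf1.

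With 1 library per group there was no replicate, so no difference could be set against the spread between cultures and no test was possible. Uniquely mapped reads in genes came to 17053000 for the wild type and 16885000 for the deletion, each to the nearest 1000. In the library labelled as the deletion, 12 reads fell in ppr10 (SPBC106.19), where the wild type had 1879. As RPKM, reads scaled to gene length and library size, its levels were 0.459 and 71.2. Differences are log2((deletion RPKM + 1)/(wild-type RPKM + 1)), and a gene is called higher or lower where that value reached 1 in either direction, a 2-fold rule of size, among genes with a mean of at least 1 RPKM. Ratios are of RPKM without the added 1, with exact 95% intervals from the reads. These intervals cover counting error only, since amplified reads with no molecular identifier do not each stand for 1 molecule. In bulk samples, fewer cells that express a gene and less RNA of it per cell cannot be told apart.

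Of the 33 genes, 32 passed the level filter. In the deletion library 5 of the 32 (15.6%) were higher by the 2-fold rule, where 2.79% of all 4986 genes that passed the filter were, and none was lower, where 1.14% of all were. The 5 were the aldo/keto reductase genes SPBC215.11c and SPAC26F1.07, the flavin enzyme genes SPBC23G7.10c and SPAC5H10.04, and the dehydrogenase gene SPAC4H3.08. The other 27 lay between the limits. The median log2 difference of the 32 was 0.12, with quartiles at −0.15 and 0.56, beside a median of 0.05 and quartiles at −0.17 and 0.26 over all 4986 genes. The middle of the list thus lay near that of all genes, and the upper quartile lay above theirs.

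**Figure D1:**
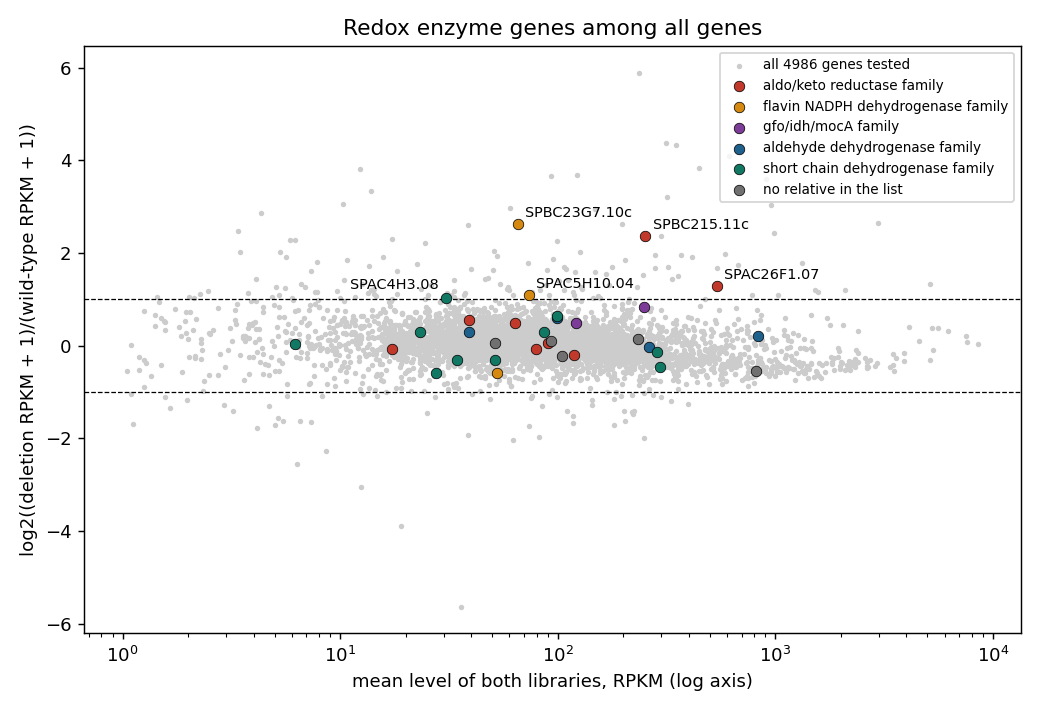
Each point is a gene, placed by its mean level over both libraries in RPKM (log axis) and by its log2 difference between deletion and wild type; grey points are all 4986 genes tested, coloured points the 32 redox enzyme genes by protein family, and dashed lines the 2-fold limits. The 5 labelled genes lie on or above the upper limit, from 1.02 (SPAC4H3.08) to 2.62 (SPBC23G7.10c), and no coloured point lies below the lower limit.

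Most of these differences exceeded counting error. Of the 32 ratio intervals, 17 lay entirely above 1, 9 entirely below 1, and 6 held 1. Over all genes those shares were 40.7% above and 29.7% below, against 53.1% and 28.1% of the 32. For 3 of the 5 higher genes, SPBC23G7.10c, SPBC215.11c and SPAC26F1.07, the interval lay wholly above 2, as it did for 2.09% of all genes. The intervals of SPAC5H10.04 (1.98 to 2.32) and SPAC4H3.08 (1.81 to 2.40) held 2. SPAC4H3.08 was the gene nearest inside the rule, and SPAC26H5.09c, with a log2 difference of 0.84, the nearest outside it.

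Comparison of the encoded proteins with each other, translated from the ASM294v3 annotation, gave 5 families and 5 genes with no relative in the list. The families held 8 aldo/keto reductases, 11 short chain dehydrogenases, 4 aldehyde dehydrogenases, 3 flavin NADPH dehydrogenases and 2 proteins of the gfo/idh/mocA family. The 5 without a relative were hom2, cir2, SPAC1F5.03c, SPCC1494.01 and SPBC18E5.10. The last is described in the deposited table as a 51 kDa subunit of NADH-ubiquinone oxidoreductase but annotated as an iron-sulphur cluster assembly protein, so it fits the list by its text only. No gene had a near-identical copy. The closest match of any coding sequence elsewhere in the annotation was 76.2%, between akr7 and plr1.

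**Figure D2:**
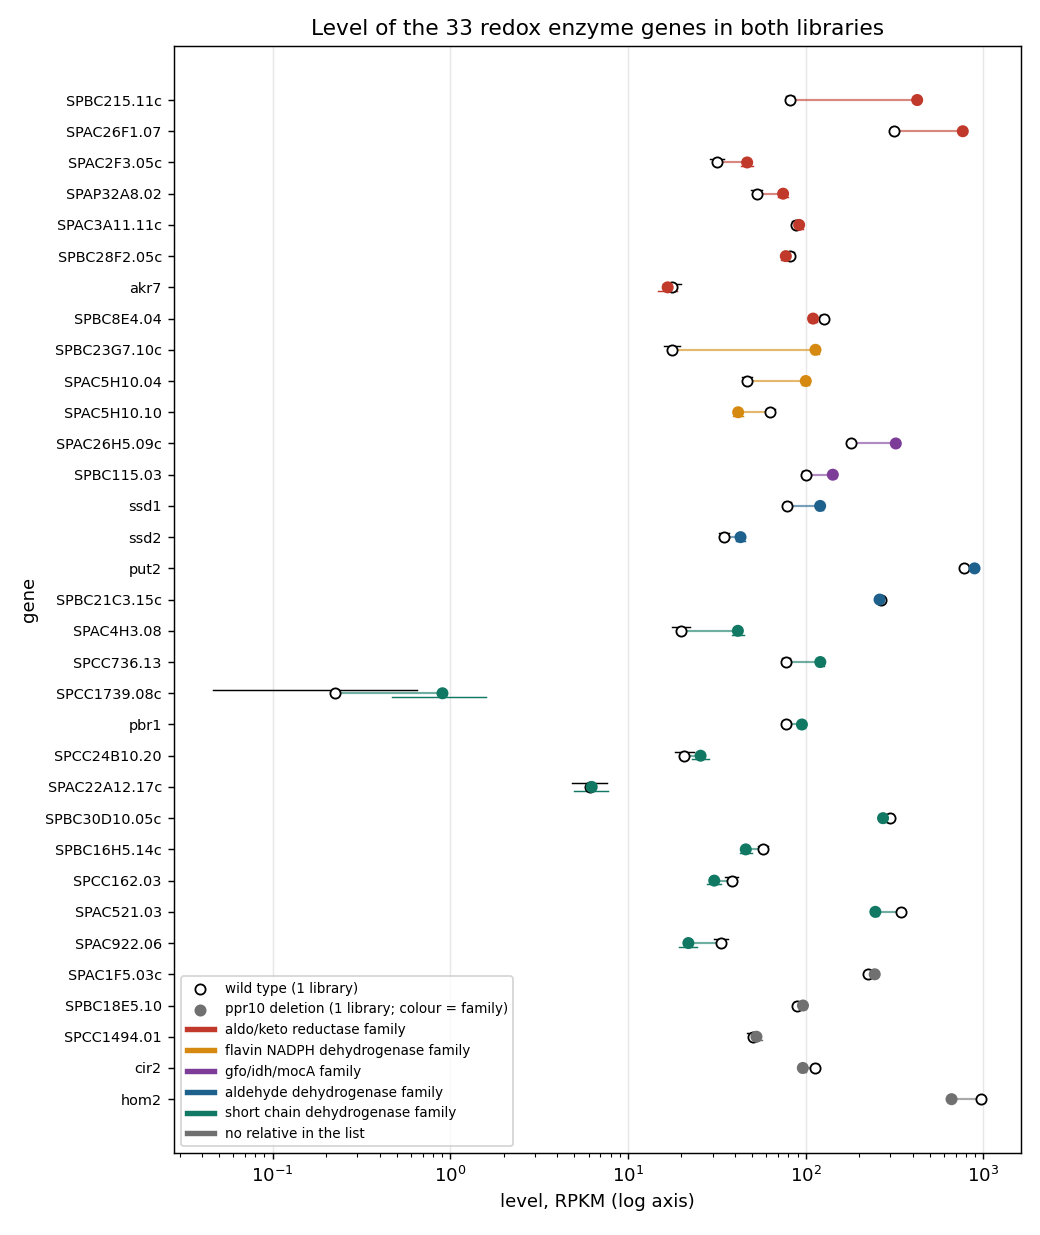
Level of each of the 33 genes in RPKM (log axis) in the wild-type library (open circles) and the ppr10 deletion library (filled circles, coloured by protein family), with thin lines at each point for the exact 95% counting interval of that level. SPBC23G7.10c moves from 17.7 to 114 RPKM and SPBC215.11c from 81.7 to 424, while most other pairs of circles lie close together.

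The aldo/keto reductases held the most abundant of the higher genes. SPAC26F1.07, annotated as an NADPH-dependent aldo-keto reductase, had 5159 reads in the WT library against 12491 in the deletion. Its level was 313 RPKM against 766, a ratio of 2.45 (2.37 to 2.53) and a log2 difference of 1.29. It ranked 4th of the 33 genes by level in the wild type and 2nd in the deletion. SPBC215.11c, an aldo/keto reductase of unnamed substrate, had 1283 reads against 6595. Its level was 81.7 RPKM against 424, a ratio of 5.19 (4.89 to 5.52) and a log2 difference of 2.36. It moved from rank 14 in the wild type to rank 4 in the deletion.

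The other 6 aldo/keto reductases lay between the limits. Those annotated as xylose and arabinose reductases, enzymes that reduce pentose sugars, did not all show a detectable difference. SPAC2F3.05c stood at 31.7 RPKM in WT cells and 46.8 in the deletion (ratio 1.48, 1.31 to 1.67), and SPAP32A8.02 at 53.1 and 74.7 (1.41, 1.28 to 1.55). Their proteins are the closest pair of that annotation, 45.2% identical. The third, SPBC28F2.05c, stood at 81.4 and 77.3 RPKM, with a ratio interval of 0.874 to 1.03 that holds 1.

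Pyridoxal reductases turn pyridoxal, a form of vitamin B6, into pyridoxine. The listed genes of this annotation, SPAC3A11.11c and akr7 (SPCC1281.04), are 47.3% identical in protein. SPAC3A11.11c stood at 88.5 RPKM in WT cells and 91.9 in the deletion, and akr7 at 17.7 and 16.7, with ratio intervals of 0.966 to 1.11 and 0.799 to 1.11. No difference between the libraries was detectable for either at this depth. A further pyridoxal reductase gene, plr1 (SPAC9E9.11), carries no deposited description and is outside the list. It had 10199 reads against 34741, or 597 RPKM against 2053, a ratio of 3.44 (3.36 to 3.52). Thus akr7 and its closest match in coding sequence differed, with ratio intervals that do not overlap.

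A like contrast appeared between close relatives within the family. SPBC8E4.04, an aldo/keto reductase 63.5% identical to SPAC26F1.07 over 315 residues, had 2110 reads in the WT library against 1818 in the deletion. Its level was 127 RPKM against 110, a ratio of 0.870 (0.817 to 0.927) where that of SPAC26F1.07 was 2.45.

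Summed over the 8 aldo/keto reductase genes, reads made up 747 RPM (reads scaled to library size alone) in the wild type and 1514 RPM in the deletion library, a ratio of 2.03 (1.98 to 2.07). SPAC26F1.07 and SPBC215.11c carried most of that difference. Without both, the remaining 6 genes made up 370 RPM against 383, a ratio of 1.04 (1.002 to 1.074). By level per length, SPBC215.11c made up 10.3% of the family total in WT cells and 26.4% in the deletion, and SPAC26F1.07 39.5% and 47.6%. The median log2 difference of the 8 genes was 0.27. The deposited text alone puts only SPBC215.11c and akr7 in this class, and the summed reads of those 2 genes gave a ratio of 4.38 (4.15 to 4.63), so the size of the change in the sum depends on the grouping.

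**Figure D3:**
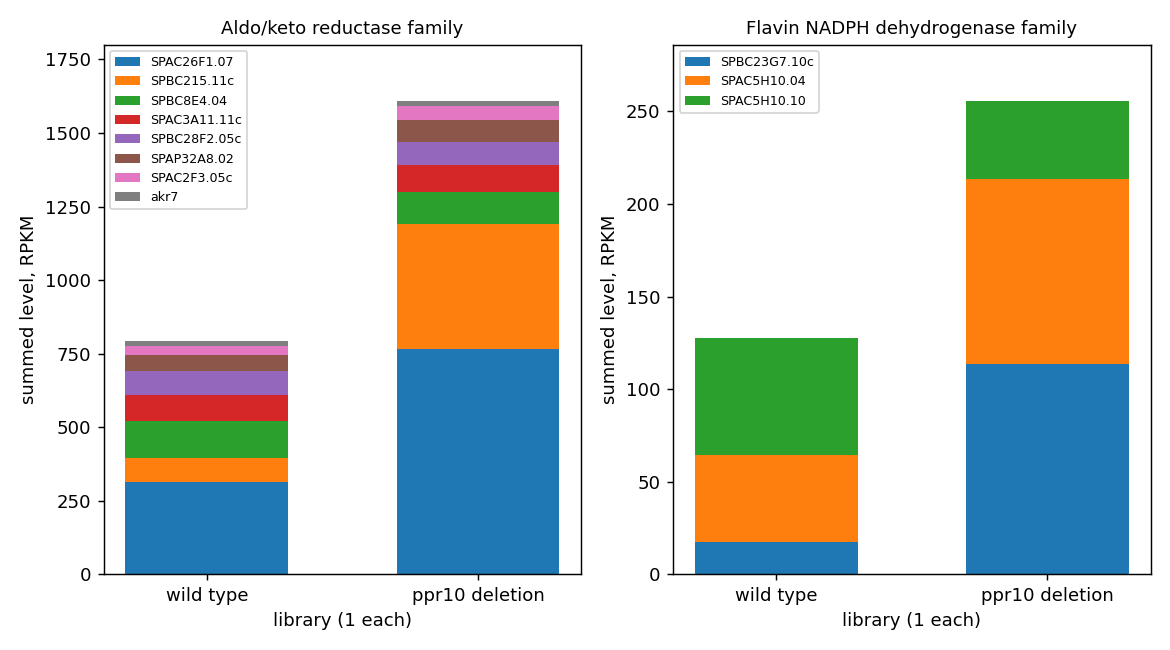
Summed level in RPKM of the aldo/keto reductase family (left, 8 genes) and the flavin NADPH dehydrogenase family (right, 3 genes) in each library, stacked by gene. The left sum goes from 793.8 to 1607 RPKM and the right from 128 to 255, and the added height lies mostly in SPAC26F1.07 and SPBC215.11c on the left and in SPBC23G7.10c on the right.

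The flavin NADPH dehydrogenases showed the widest spread of any family. SPBC23G7.10c, annotated as an NADH-dependent flavin oxidoreductase, had 358 reads in the WT library against 2278 in the deletion. Its level was 17.7 RPKM (15.9 to 19.6) against 114 (109 to 118), a ratio of 6.43 (5.75 to 7.20) and a log2 difference of 2.62. This was the largest difference among the 32 genes, and the gene moved from rank 31 of 33 to rank 13. SPAC5H10.04, an NADPH dehydrogenase, stood at 46.8 RPKM against 100.1, a ratio of 2.14 and a log2 difference of 1.08.

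The third member, SPAC5H10.10, went the other way. It had 1272 reads against 830, or 63.3 against 41.7 RPKM, a ratio of 0.659 (0.603 to 0.720), which did not reach the 2-fold limit. The proteins of SPAC5H10.04 and SPAC5H10.10 are 57.1% identical over 380 residues, and 4 listed genes lie between them. SPBC23G7.10c is a more distant relative, 24.3% identical to SPAC5H10.04 over 230 residues and 23.2% to SPAC5H10.10 over 233. In WT cells SPAC5H10.10 had the highest level of the 3, at 49.5% of the family sum. In the deletion it had the lowest, at 16.3%, and SPBC23G7.10c had the highest, at 44.5%. The family sum went from 149 to 299 RPM, a ratio of 2.004 (1.91 to 2.10). Grouped by deposited text alone, the flavin class holds only SPAC5H10.04 and SPAC5H10.10, and its summed reads gave a ratio of 1.28 (1.21 to 1.35).

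Besides its ratio interval that holds 2, the value of SPAC5H10.04 is uncertain in a further respect. Its coding span overlaps SPAC5H10.05c, an FAD-binding oxidoreductase gene on the opposite strand, and the sources used here do not say whether the counting used strand. SPAC5H10.05c had 817 reads against 1604, a ratio of 1.98 (1.82 to 2.16), close to that of SPAC5H10.04. Reads in the stretch the pair shares cannot be assigned to either gene without strand, and the length of that stretch was not measured. In all, 25 of the 33 coding spans are overlapped by another annotated gene, always on the opposite strand. The overlapping gene codes for protein in 3 cases and is a non-coding RNA otherwise. SPBC23G7.10c, SPBC215.11c and SPAC4H3.08 are overlapped by 1 non-coding RNA each, and SPAC26F1.07 by none. The part of antisense reads in these values was not tested.

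Both genes of the gfo/idh/mocA family, NAD(P)-dependent dehydrogenases of sugars and related compounds in other organisms, had positive differences below the limit. SPAC26H5.09c stood at 180 RPKM in WT cells and 322 in the deletion (ratio 1.79, 1.72 to 1.87). SPBC115.03 stood at 100.2 and 142 (1.42, 1.34 to 1.51). At 67.4% these proteins are the most alike of any pair in the list, and the order of their levels was the same in both libraries.

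The aldehyde dehydrogenase family was dominated by put2, which encodes the mitochondrial delta-1-pyrroline-5-carboxylate dehydrogenase of proline breakdown. It had 21729 reads against 24806, or 774 against 892 RPKM, a ratio of 1.15 (1.13 to 1.17). It made up 67.1% of the family sum in WT cells and 67.8% in the deletion. Succinate-semialdehyde dehydrogenases take part in the breakdown of 4-aminobutyrate. Of the genes for them, ssd1 stood at 78.9 RPKM against 121 (1.53, 1.45 to 1.61) and ssd2 at 34.9 against 43.0 (1.23, 1.13 to 1.35). SPBC21C3.15c, an aldehyde dehydrogenase of unnamed substrate, stood at 265 and 260.5 RPKM, with a ratio interval of 0.950 to 1.02. None of the 4 reached the limit, and their median log2 difference was 0.25. The listed length of ssd1 is 1644 bases and its annotated coding length 1497, so its level per length depends on the gene model. The same holds for pbr1, at 1194 and 1131.

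The short chain dehydrogenases were the largest family and had no common direction. Of 11 genes 10 passed the filter, of which 5 had positive and 5 negative log2 differences, with a median of −0.05, which became 0.03 with the gene that did not pass the filter included. Their summed reads made up 808 RPM in WT cells and 777 RPM in the deletion, a ratio of 0.962 (0.939 to 0.985). The 1 higher gene was SPAC4H3.08, annotated as a 3-hydroxyacyl-CoA dehydrogenase, with 293 reads against 604. Its level was 20.0 RPKM against 41.5, a ratio of 2.08 and a log2 difference of 1.02. Its log2 difference fell to 0.90 with 5 RPKM added in place of 1, and to 0.97 relative to the median gene, so its call depends on the setting.

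The next positive differences of the family were those of SPCC736.13, annotated as a dehydrogenase, at 77.3 RPKM against 121 (1.56, 1.46 to 1.68), and of pbr1, at 77.3 against 95.2 (1.23, 1.15 to 1.32). SPCC24B10.20 stood at 20.8 and 25.6 RPKM (1.23, 1.05 to 1.45). Its coding sequence matches those of 4 genes, SPCC663.06c to SPCC663.09c, at 68.7% to 71.4%. Of these, SPCC663.08c and SPCC663.09c carry a description of the listed kinds and were set aside with their cluster. Of the pair, only SPCC663.08c had a ratio interval that does not hold 1. The ratio was 9.33 (8.67 to 10.05) for SPCC663.08c, from 61.6 to 575 RPKM, and 0.940 (0.883 to 1.0002) for SPCC663.09c, from 159 to 149 RPKM. The remaining gene set aside by identifier, SPAC750.01 of another cluster, stood at 83.2 against 271 RPKM (3.26, 3.07 to 3.46). SPAC22A12.17c had 82 reads against 83, a ratio interval of 0.744 to 1.40. SPCC1739.08c, 50.6% identical to it in protein, had 3 reads against 12 and was the gene that did not pass the filter. Its ratio of 4.04 has an interval of 1.09 to 22.3.

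The 2 most abundant genes of the family had negative differences. SPAC521.03, annotated as a dehydrogenase, was the most abundant in the wild type, with 342 RPKM against 247 in the deletion (0.721, 0.689 to 0.755). SPBC30D10.05c, a sepiapterin reductase, which acts on pterin cofactors, stood at 299 and 272 (0.912, 0.870 to 0.955), and was the most abundant in the deletion. SPAC922.06, a 3-oxoacyl-[acyl-carrier-protein] reductase of fatty acid synthesis by its annotation, stood at 33.5 and 21.9 RPKM (0.653, 0.561 to 0.759). Its log2 difference of −0.59 was the most negative of the 32 genes. SPCC162.03 stood at 38.4 and 30.6 RPKM and SPBC16H5.14c at 57.5 and 46.0, with ratios of 0.797 (0.704 to 0.903) and 0.801 (0.722 to 0.887).

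**Figure D4:**
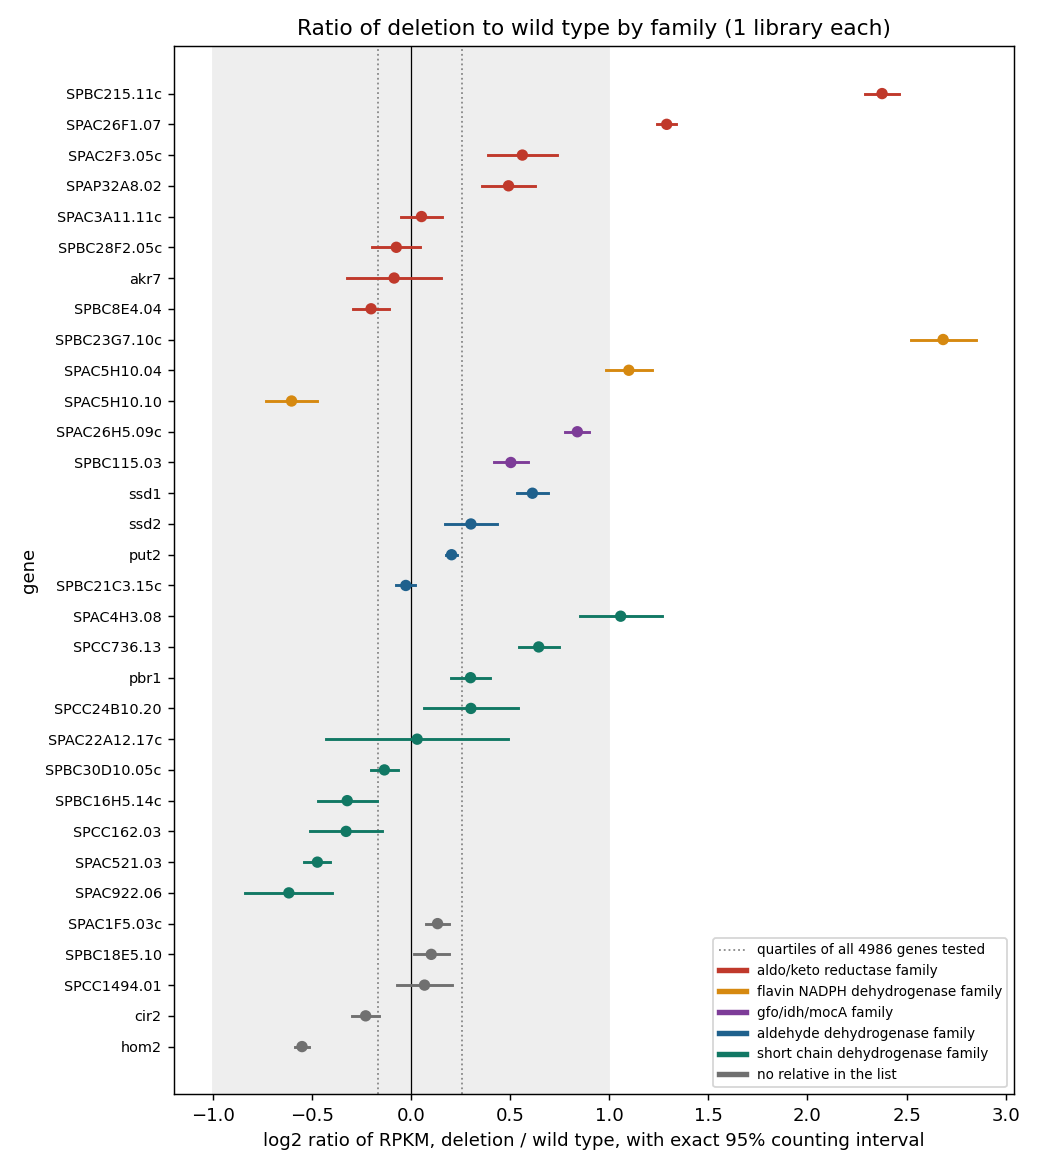
Ratio of deletion to wild-type RPKM on a log2 scale for the 32 genes that passed the filter, grouped and coloured by protein family, with horizontal lines for exact 95% counting intervals, a grey band for ratios within 2-fold and dotted lines for the quartiles of all 4986 genes. Of the families, only gfo/idh/mocA lies wholly on 1 side of 0, and the only negative aldehyde dehydrogenase, SPBC21C3.15c, has an interval that crosses 0. The points farthest right are SPBC23G7.10c and SPBC215.11c.

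Of the genes without a relative in the list, hom2 had the lowest ratio. It encodes aspartate-semialdehyde dehydrogenase, an enzyme of threonine and methionine synthesis, and was the most abundant of the 33 genes in the wild type. It had 17736 reads against 12004, or 968 against 662 RPKM, a ratio of 0.684 (0.668 to 0.700). In the deletion put2 and SPAC26F1.07 stood above it. The gene cir2, for the mitochondrial electron transfer flavoprotein-ubiquinone oxidoreductase, which passes electrons from flavoprotein dehydrogenases to ubiquinone, stood at 113 and 96.4 RPKM (0.854, 0.814 to 0.896). SPAC1F5.03c, an FAD-dependent oxidoreductase, stood at 223 and 245 (1.10, 1.05 to 1.14). The ratio of SPBC18E5.10 was 1.074 (1.01 to 1.14), and that of SPCC1494.01, of the iron and ascorbate oxidoreductase family, was 1.05 (0.952 to 1.16).

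Genes next to the 5 higher genes were examined in the order of the annotation. Of the 20 genes at most 2 listed places away, 1 was lower by the rule, SPAC4H3.06, at 54.8 against 26.2 RPKM, and none was higher. Over all genes tested 2.79% were higher and 1.14% lower, so 20 genes are too few to tell neighbours from these shares. The nearest to the upper limit was SPAC5H10.05c, which overlaps its neighbour. The gene mag2, beside SPBC23G7.10c, stood at 22.0 against 10.5 RPKM, a log2 difference of −0.999 just short of the limit. Thus no higher gene lay beside another called higher by the rule.

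Genes of related pathways outside the list gave context, to be read against the 2.79% of all genes tested that were higher, the 1.14% that were lower, and the median of 0.05. Of 10 genes of the pentose phosphate pathway and NADPH supply, 1 was higher and none lower, with a median log2 difference of 0.12. The 1 was zwf1, for the glucose-6-phosphate dehydrogenase that opens the pathway, at 315 RPKM against 635 (2.014, 1.96 to 2.07). The next enzymes stood at 1.29 (pgl1) and 1.11 (gnd1) of the wild-type level, and idp1, an NADP isocitrate dehydrogenase gene, at 0.595 (0.574 to 0.617). Of 8 genes of methylglyoxal detoxification, which removes a reactive aldehyde of glycolysis, only hsp3104 was higher, at 75.03 RPKM against 181 (2.41, 2.23 to 2.62), and the median was 0.32. None of 4 vitamin B6 genes was higher or lower, and their median was 0.04. Of 6 alcohol and formaldehyde dehydrogenase genes adh8 was higher, at 28.1 against 599 RPKM, and the median of the 6 was 0.37.

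Of 7 genes listed as regulators of the peroxide and stress response, tpx1, for the main peroxiredoxin, was higher at 2.23 times the wild-type level (2.18 to 2.29). All 7 differences were positive, with a median of 0.38, where 57.1% of all genes tested had a positive difference. Those of the transcription factor genes were 0.84 (atf1), 0.54 (pap1) and 0.19 (prr1). The 7 do not stand for the whole response. Outside them, sod1 and ctt1 had negative differences, −0.58 and −0.38, and pmp20 stood at 0.006. The differences of gst2, zta1 and ccs1 were positive, at 2.65, 1.51 and 0.77. These genes were in none of the planned lists, and the rest of the response was not counted. Of 8 marker genes of mating, meiosis and spores, spo5 and meu10 were higher, beside 2.79% of all genes tested, none was lower, beside 1.14%, and none was at 0 reads. The median log2 difference of the 8 was 0.09, and the ratio intervals of 5 held 1. Their summed level was 71.7 RPKM in WT cells and 107 in the deletion, with meu10 alone at 5.20 against 29.5. The part of such cells in these results was not tested.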

How the data were processed

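The values of both libraries came from 1 deposited table. Its columns, per the file headers, are a gene length and, for each library, uniquely mapped read counts, RPKM and a coverage score. That score carries a percent sign but exceeds 100 in 7 genes, and it was used for no result. Per the submitters' processing notes, Bowtie2 2.2.3, TopHat2 2.0.12 and the build ASM294v2 were used, while the design text of the series lists BWA and ANOVA beside TopHat and Cufflinks. The sources used here do not give the strand setting. The RPKM values deposited by the authors were recomputed from reads, length and column total, with a largest difference of 4.99e-07. Of 5076 lengths, 5075 are multiples of 3, so they are taken as coding lengths.

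The members and lists were chosen with earlier results of these data known. No count model was fitted. Intervals are exact Clopper-Pearson bounds of the read ratio, and exact Poisson bounds for single levels (scipy 1.17.1, Python 3.11.15). The rule of size and the intervals were tested on simulated data. These data held counting error only, so that check cannot speak to spread between cultures. Names, products and gene order came from ASM294v3, a later build, which matched 5048 of the 5076 identifiers by locus tag. The listed length equalled the annotated coding length in 31 of 33 genes. Families were joined by blastp matches (BLAST+ 2.17.0) at an e-value of at most 1e-05. They were added because the deposited text left 24 of 33 genes in the class of other oxidoreductases. A copy counted as near-identical at 95% identity or more over 50% of the coding length. Genes were named by rule: all past 2-fold, the 8 largest of the rest in each direction, the 3 most abundant per class and those nearest the limits. All 33 are named, so others were chosen after their values were seen. The planned search for promoter motifs was not run, because no sequence of the authors' build was used here.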

Additional observations from a re-analysis of the deposited data

How the results depend on the processing

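No paired analysis was possible because there is only 1 library per group, and leaving out a replicate was likewise not possible. The count of 5 higher genes became 8 at 1.5-fold, 2 at 3-fold and 3 where the whole interval had to lie past 2-fold. Over all genes tested the interval lay wholly above 2 in 2.09%. It became 1 of 7 genes without those overlapped by another annotated gene, an alternative chosen after seeing the data, since 25 of 33 genes then left the list. At 1.5-fold 2 genes were lower, against 0. Shares of all genes at 1.5-fold and 3-fold were not computed, so the counts at those limits cannot be set against all genes. The other pseudocounts, filters and scalings kept the counts within 1.5 times, and SPAC4H3.08 was the only one of the 5 to drop below the limit in any of them (lowest log2 difference 0.90). The log2 difference of the other four stayed at or above 1.02 in these settings. The median log2 difference of the whole list ranged from 0.05 to 0.16, and was 0.07 without 5 genes. These were SPBC18E5.10 and the partial text matches, whose text names a semialdehyde dehydrogenase and no other listed kind. The median of the 5 genes whose text names an aldehyde or semialdehyde dehydrogenase moved from 0.21 to 0.25 as TPM. It moved to 0.16 relative to the median gene, as those scalings shift every gene alike. Signs changed under some setting for SPAC22A12.17c and SPBC21C3.15c, whose ratio intervals hold 1, and for the median of the short chain family, −0.05, which was 0.03 with no filter on low values. Grouping by deposited text in place of protein family, as first planned, moved the median of the flavin enzymes from 1.08 to 0.25 and that of the aldo/keto reductases from 0.27 to 1.14. No gene had a near-identical copy, so leaving such genes out changed nothing.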

Other observations

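A further 18 genes outside the list have an annotated product that names one of the same enzyme kinds, although no deposited description put them in it; they were gathered after the data were seen. Of these, 3 were higher by the 2-fold rule and none was lower, beside 2.79% and 1.14% of all genes tested, with a median log2 difference of 0.24. The most abundant was plr1. SPAPB24D3.08c, annotated as an NADP-dependent oxidoreductase, stood at 237 RPKM in WT cells against 934 in the deletion, a ratio of 3.93 (3.80 to 4.07). The quinone oxidoreductase gene zta1 stood at 186 against 529 RPKM (2.85, 2.74 to 2.97). The aldehyde dehydrogenase gene atd2 had the lowest value, 28.7 against 18.3 RPKM (0.638, 0.566 to 0.718), and atd1, of the same annotation, stood at 277 against 248 (0.897, 0.867 to 0.928). The glutathione-dependent formaldehyde dehydrogenase genes fmd1, fmd2 and fmd3 had ratios of 1.30, 1.29 and 1.13, and the interval of fmd3 (0.983 to 1.30) holds 1.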
